A study of Sus scrofa with 24 samples.

Results

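Cytosolic ribosomal protein genes were taken as every array probe whose gene name in the scanner files, or whose RefSeq identifier, carries an RPL or RPS symbol with a number or is RPLP0, RPLP1, RPLP2 or RPSA, with the RPS6K kinases left out. The rule found 219 of 43603 probes and 39 genes, of 80 such symbols in the RefSeq gene table, and each gene was read at its brightest probe. Of the 39 genes, 38 passed the filter on dim probes, of 4312 named genes that did, and all 38 were well above background on all 24 arrays. RPL10L, the copy of RPL10 known in humans mainly from testis, did not pass. The 20 members of the large subunit were RPL5, RPL6, RPL7, RPL8, RPL10, RPL10A, RPL11, RPL12, RPL13A, RPL14, RPL22, RPL23, RPL27, RPL29, RPL30, RPL32, RPL35, RPL36AL, RPLP0 and RPLP1. The 18 members of the small subunit included RPS3, RPS3A, RPS4X, RPS10, RPS12, RPS15, RPS16, RPS18, RPS20, RPS21, RPS23, RPS24, RPS26, RPS28, RPS29 and RPSA.

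Fat from under the skin was taken from pigs weighing 115 kg and read on 24 one-colour Agilent arrays, 1 per sample and 8 per group. RFIneg pigs came from the low residual feed intake strain and ate without restriction. RFIplR pigs came from the high strain and were restricted to the feeding level of RFIneg, and RFIpl pigs came from the high strain and ate without restriction. Residual feed intake is the part of feed intake that growth and maintenance do not account for. No allele or drug was named for any group, and RFIneg against RFIpl differs in strain and in the feed eaten together.

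Ribosomal proteins bind the ribosomal RNAs and form, with them, the small subunit that reads the messenger RNA and the large subunit that joins amino acids. Most of their messenger RNAs begin with a tract of pyrimidines through which the kinase complex mTORC1, which senses nutrients and insulin, controls their translation rather than their level. Many serve as reference genes in quantitative PCR, also in adipose tissue.

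By overall signal there were 17 bright arrays, whose 75th percentile of processed intensity was 413.8 to 662.4, and 7 dim ones, where it was 69.3 to 94.3. RFIneg had 2 dim arrays, RFIplR had 3 and RFIpl had 2, so every comparison is given without and with brightness as a block. All 12 adipocyte markers were well above background on all 24 arrays. Without a block 0 of these 12 were called in limma in any comparison. Under a brightness block 5 were higher and 0 lower in RFIneg against RFIpl, where 6.63% of all probes were called, and 3 were higher and 0 lower in RFIplR against RFIpl, where 10.3% were. Of 6 endothelial markers, under the block, 1 was higher in RFIneg against RFIpl, and 2 were higher and 1 lower in RFIplR against RFIpl, with 0 called without it. All 4 macrophage markers measured, of 10 listed, had differences below 0 in both comparisons, with 0 called in either fit. Of 7 lymphocyte markers measured, of 13 listed, 6 lay above 0 in RFIneg against RFIpl in both fits. In RFIplR against RFIpl 7 lay above 0 without the block and 6 with it, and 0 were called. Set against its brightness class, the median of 6 skeletal muscle markers lay at most 1.58 above in RFIneg, 0.12 above in RFIplR and 8.45 above in RFIpl, in the array RFIpl 2, and that of 3 keratinocyte markers lay 6.47 above in RFIpl 7. In bulk tissue, fewer cells of a type and less RNA per cell cannot be told apart. The part of these differences in the values below was not tested. All levels below are log2 of the processed intensity over the array's 75th percentile, and all differences are log2 differences.

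Each probe is a 60-base oligonucleotide, and the number of probes per gene ran from 1 to 18. Probes of RPLP0, the scaffold of the ribosomal stalk, are shown because they behaved differently on the dim arrays, the last pair also because they share most of their sequence; positions are those of the scanner files and count bases of the sequence from which the probe was designed. Capitals mark the longest run of 32 bases that the pair shares, and lower case carries no marked part.
RPLP0 at 549: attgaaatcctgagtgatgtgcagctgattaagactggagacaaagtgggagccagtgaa
RPLP0 at 881: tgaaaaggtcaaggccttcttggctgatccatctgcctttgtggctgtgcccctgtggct
RPLP0 at 1013: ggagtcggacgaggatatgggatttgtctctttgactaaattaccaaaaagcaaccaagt
RPLP0 at 769: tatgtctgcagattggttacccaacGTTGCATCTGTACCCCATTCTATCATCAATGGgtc
RPLP0 at 778: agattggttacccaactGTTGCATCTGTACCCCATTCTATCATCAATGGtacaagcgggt
The pair differs by inserted or missing bases beside the shared run. Of 151 pairs of probes of a gene whose positions lay 1 to 30 bases apart, 145 shared a run of at least 15 bases, so probes of a gene are not independent readings. The next probes carry results given below, those of RPL23, a protein of the subunit interface, because they were called in one fit, and those of RPL7, another large-subunit protein, because they show the change along a gene.
RPL23 at 138: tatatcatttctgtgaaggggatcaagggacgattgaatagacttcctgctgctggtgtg
RPL23 at 225: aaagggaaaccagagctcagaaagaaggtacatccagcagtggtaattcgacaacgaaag
RPL7 at 317: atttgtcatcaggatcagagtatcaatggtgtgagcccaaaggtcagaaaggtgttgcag
RPL7 at 670: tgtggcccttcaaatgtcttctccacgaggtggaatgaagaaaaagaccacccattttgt

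Between the strains fed without restriction, RFIneg and RFIpl, no cytosolic ribosomal protein gene passed the test. In limma over all 24 arrays, 0 of 38 members passed an adjusted p of 0.05, where 0.206% of the 28601 probes tested were called. An unadjusted p under 0.05 was found for 0 members and for 1964 of the 28601 probes. When brightness was a block, 0 of 38 passed, where 6.63% of all probes were called. An unadjusted p under 0.05 was then found for 1 member, RPL23, and for 6518 of the 28601 probes. The differences ran from -0.19 for RPL23 to 0.16 for RPL13A, with 16 members higher and 22 lower in RFIneg. Their median was -0.01, as was that of all probes. Without RFIpl 2 and with the block it was 0.02, 0 of 38 passed and 2 had an unadjusted p under 0.05. The shares of all probes in that fit are not given here. The median was 0.00 over the 20 members of the large subunit and -0.02 over the 18 members of the small subunit.

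The intervals describe the brightest probe of each gene, and other probes of a gene can lie outside them. Without a block, the 95% intervals of all 38 members lay within a difference of 1, a doubling or halving of signal, and 31 lay within 1.5-fold. Under that block the point estimates were the same, since both groups held 2 dim arrays, and all 38 intervals lay within 1.5-fold and 34 within 1.25-fold. The lowest limit of any interval with the block was -0.38, for RPS23, and the highest was 0.35, for RPL13A. Of the 28601 probes, 47.1% had a difference between the group means larger than the largest of any member.

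**Figure D1:**
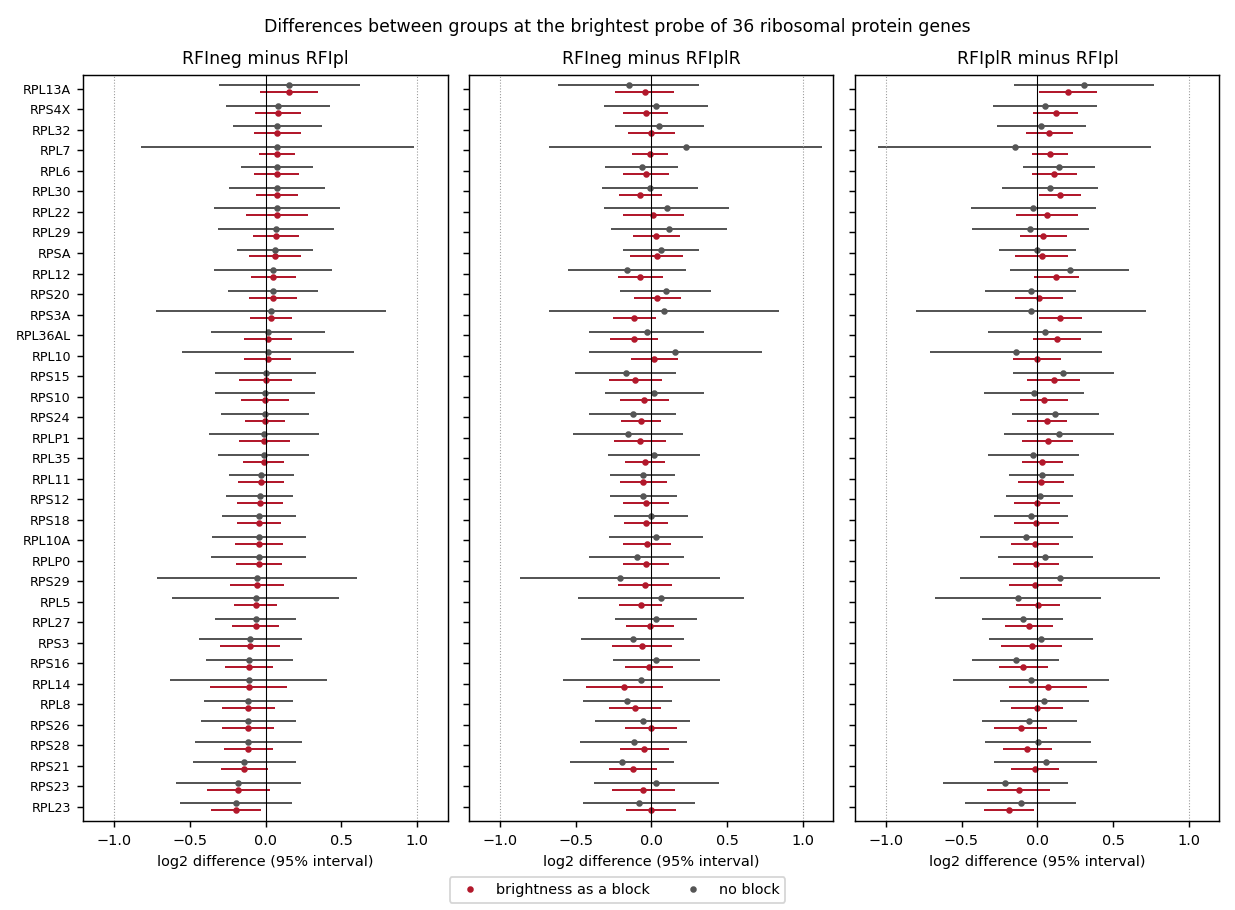
Log2 difference (x axis) at the brightest probe of each of 36 of the 38 ribosomal protein genes (rows, ordered by RFIneg minus RFIpl) in 3 comparisons, with 95% intervals from limma without a block (grey) and with brightness as a block (red); dotted lines mark a difference of 1. All points lie between -0.21 and 0.31, and with the block no interval leaves the range from -0.43 to 0.40.

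The stalk recruits the elongation factors to the large subunit, and its members overlapped between the groups. RPLP0 had a lowest, median and highest level of 7.80, 8.21 and 8.67 in RFIneg, 8.03, 8.15 and 8.77 in RFIplR and 8.07, 8.22 and 8.53 in RFIpl. The ranges overlapped in all pairs of groups, and the highest values in each group were those of its dim arrays. The difference of RPLP0 was -0.04 in RFIneg against RFIpl (95% interval -0.36 to 0.27, limma adjusted p = 0.9999), and with brightness as a block its interval ran from -0.19 to 0.11.

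RPLP1, the small acidic protein carried by RPLP0, had 8.45, 8.71 and 9.28 in RFIneg, 8.54, 8.75 and 9.53 in RFIplR and 8.62, 8.79 and 9.11 in RFIpl. Its difference in RFIneg against RFIpl was -0.01 (interval -0.37 to 0.35), and its ranges overlapped throughout. RPL12, which forms the base of the stalk, had a difference of 0.05 (interval -0.34 to 0.44), and RPL10, one of the last proteins to join the subunit, one of 0.02 (interval -0.55 to 0.58). The third stalk protein, RPLP2, was not measured under the rule.

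RPL5 and RPL11 bind the 5S RNA and, when ribosome assembly fails, bind MDM2, the ligase that degrades p53. RPL5 had 6.85, 7.89 and 8.00 in RFIneg, 6.93, 7.85 and 8.09 in RFIplR and 6.79, 7.97 and 8.15 in RFIpl. The low values in each group were its dim arrays, which lay at 6.85 to 6.87 in RFIneg, 6.93 to 7.02 in RFIplR and 6.79 to 6.83 in RFIpl. Its difference in RFIneg against RFIpl was -0.07, with an interval of -0.61 to 0.48 without a block and -0.21 to 0.08 with it. All 18 probes of RPL5 gave a difference below 0 in this comparison, between -0.15 and -0.04, and the probes share the same 24 RNA samples.

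RPL11 had 7.93, 8.08 and 8.18 in RFIneg, 7.88, 8.19 and 8.34 in RFIplR and 8.01, 8.10 and 8.22 in RFIpl. The ranges overlapped, and its brightest probe differed by 0.04 between dim and bright arrays. Its difference in RFIneg against RFIpl was -0.03 (interval -0.24 to 0.19).

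RPSA, the laminin receptor homologue at the messenger RNA exit, had 6.70, 6.93 and 7.04 in RFIneg, 6.61, 6.81 and 7.04 in RFIplR and 6.41, 6.87 and 7.04 in RFIpl. The highest array reached the same level in all 3 groups, and the difference in RFIneg against RFIpl was 0.06 (interval -0.19 to 0.32). The other members that line the messenger RNA path were RPS3 at the entry, with -0.10 (interval -0.44 to 0.24), and RPS26 and RPS28 near the exit, with -0.11 (-0.43 to 0.20) and -0.11 (-0.46 to 0.24). None of these 4 passed the test.

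RPS18, a common reference gene of the small-subunit head, had 6.76, 7.24 and 7.37 in RFIneg, 7.003, 7.18 and 7.30 in RFIplR and 6.91, 7.31 and 7.38 in RFIpl. Its difference was -0.04 in RFIneg against RFIpl (interval -0.29 to 0.20), 0.00 in RFIneg against RFIplR and -0.04 in RFIplR against RFIpl. RPL36AL, a retained copy of the gene for RPL36A, had a difference of 0.02 in RFIneg against RFIpl (interval -0.36 to 0.39).

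The members at both ends of the range in RFIneg against RFIpl were also uncalled. RPS23, which reaches into the decoding centre, had 7.19, 8.05 and 8.14 in RFIneg, 7.31, 7.77 and 8.45 in RFIplR and 7.40, 8.19 and 8.47 in RFIpl, with a difference of -0.18 (interval -0.59 to 0.23). RPS21, another small-subunit protein, had -0.14 (interval -0.48 to 0.20). On the positive side RPS4X, RPL32, RPL7 and RPL6 all had 0.08. RPL13A had the largest positive difference, 0.16 (interval -0.31 to 0.62), but its single probe was assigned through the RefSeq identifier alone, and its description in the file names a different gene, so its identity is uncertain.

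**Figure D2:**
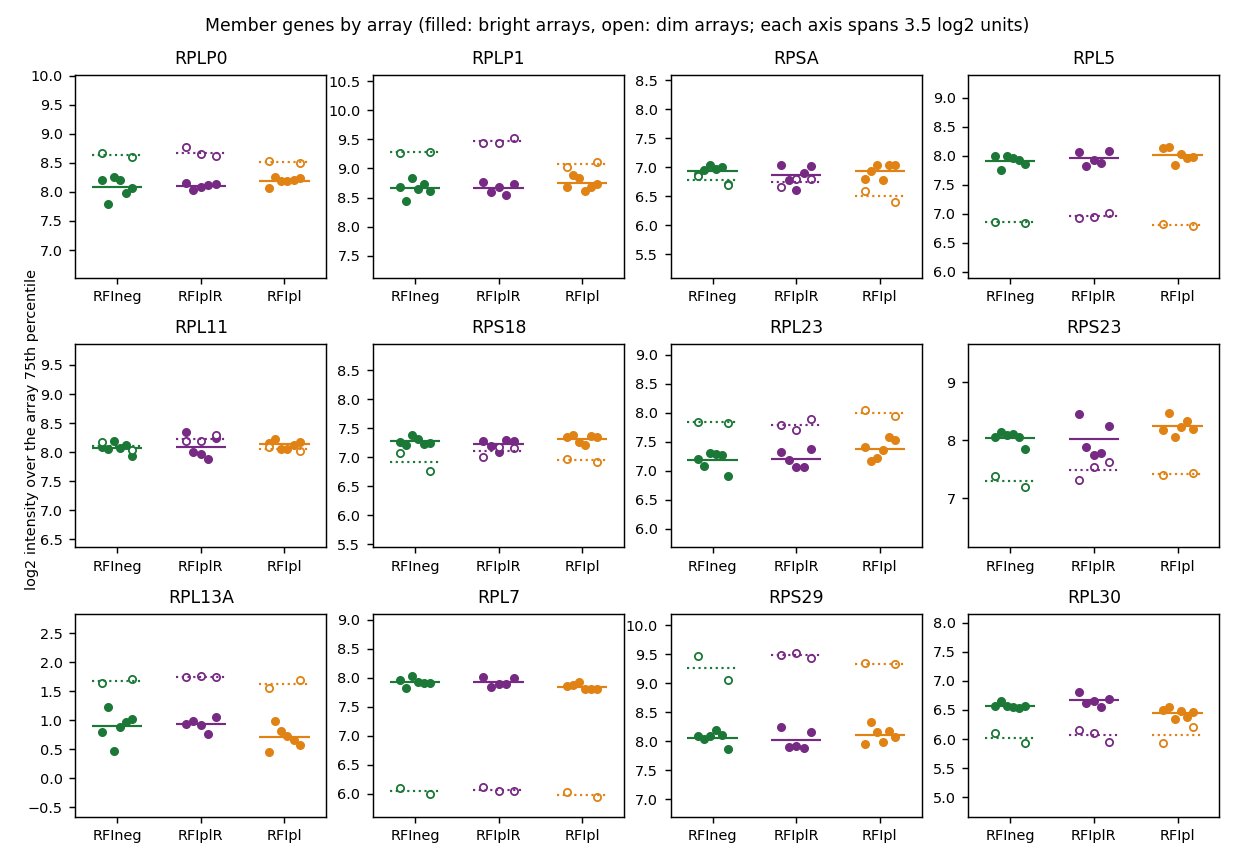
Level of 12 members by array (y axis, log2 intensity over the array's 75th percentile) in RFIneg, RFIplR and RFIpl, with filled points for bright and open points for dim arrays, and a solid or dotted line at the mean of each. The groups overlap in every panel over all 8 arrays, and the dim arrays lie above the bright ones in RPS29 and below them in RPL7 and RPL5.

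At the same feeding level, RFIneg against RFIplR, no member passed the test. In limma 0 of 38 members passed without a block or with brightness as a block, and 0 had an unadjusted p under 0.05 in either fit. Of all 28601 probes 0% were called in both fits, while 606 and 2715 had an unadjusted p under 0.05. The median difference was -0.02 without a block and -0.04 with it, against -0.01 and 0.02 for all probes. Without a block 22 members lay below 0 and 16 above it, as within the bright arrays, and with the block 33 lay below 0 and 5 above it, with a range from -0.18 for RPL14, a protein of the large-subunit surface, to 0.04 for RPS20, of the small-subunit head.

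In RFIneg against RFIplR the members with the widest differences without a block were those that moved with array brightness. RPL7 had 0.23 (interval -0.67 to 1.13) and RPS29, a small zinc-binding protein of the small-subunit head, had -0.21 (interval -0.86 to 0.45). Under the block these were -0.01 (interval -0.13 to 0.11) and -0.04 (interval -0.22 to 0.13). RFIplR held 3 dim arrays and RFIneg 2. Among the others named at the ends of the range, RPS21 had -0.19, RPS15 -0.17, RPL12 and RPL8 -0.16, RPL10 0.16, RPL29 0.11, RPL22 0.10 and RPS20 0.09, and none passed the test. With the block 38 of 38 intervals lay within 1.5-fold and 37 within 1.25-fold.

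RPL7 moved most with brightness. On bright arrays its lowest, median and highest level were 7.82, 7.91 and 8.03 in RFIneg, 7.84, 7.89 and 8.01 in RFIplR and 7.79, 7.83 and 7.92 in RFIpl. On dim arrays it lay at 5.99 and 6.10 in the 2 RFIneg pigs, at 6.04, 6.05 and 6.11 in the 3 RFIplR pigs and at 5.94 and 6.02 in the 2 RFIpl pigs. On bright arrays all groups overlapped. On dim arrays the 3 RFIplR values lay above the 2 RFIpl values, but the share of all kept probes that separate among so few arrays was not counted. No group difference is read from it. RPL7 had the smallest spread of all members, an SD of 0.061 within group and class.

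Restriction of the high strain, RFIplR against RFIpl, gave 0 of 38 members in limma without a block, where 0.297% of all probes were called. In that fit 0 members and 2344 of the 28601 probes had an unadjusted p under 0.05. Under the block 0 of 38 were called, where 10.3% of all probes were called. An unadjusted p under 0.05 was found for 4 of 38 members and for 7344 of the 28601 probes. The smallest adjusted p among the members with the block was 0.140, for RPL23. The median difference was 0.01 without a block, as for all probes, and 0.03 with the block, where that of all probes was -0.02. Without RFIpl 2 and with the block the median was 0.05, 6 members had an unadjusted p under 0.05, and 0 passed after adjustment. The shares of all probes in that fit are not given here.

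The 4 members with an unadjusted p under 0.05 with the block were RPL23, RPL30, RPS3A and RPL13A. RPL23 had -0.19 (interval -0.36 to -0.02), RPL30, which also binds its own transcript in yeast, 0.15 (interval 0.01 to 0.29), RPS3A, of the small-subunit platform, 0.15 (interval 0.01 to 0.29), and RPL13A 0.20 (interval 0.01 to 0.40). Their adjusted p-values with the block in limma lay between 0.140 and 0.175. Without a block, at the ends of the range stood RPS23 with -0.21 and RPL13A with 0.31, followed by RPL12 with 0.21, RPS15 with 0.17, RPS29 with 0.15, RPL7 with -0.15, RPLP1, RPL10 and RPS16 with 0.14, -0.14 and -0.14, and RPL5 with -0.13.

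RPL30 was the only member whose groups did not overlap on the bright arrays in any of the 3 comparisons. Its bright arrays read 6.80, 6.62, 6.65, 6.56 and 6.69 in RFIplR, against a lowest, median and highest of 6.34, 6.47 and 6.54 in RFIpl. On the dim arrays it read 6.15, 6.11 and 5.96 in RFIplR and 5.93 and 6.21 in RFIpl, so there the groups overlapped. Of all kept probes 3.05% did not overlap in the same comparison of bright arrays, and within the bright arrays the adjusted p of RPL30 in limma was 0.139.

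Within the dim arrays alone, 3 RFIplR against 2 RFIpl, 36 of 38 members lay above 0, with a median of 0.17 and the highest value 0.40 for RPLP1. The median of all probes there was -0.02. Within the bright arrays the split turned to 12 above and 26 below 0, with a median of -0.04, where that of all probes was -0.01. The members share these arrays and tended to move together on them, so the splits do not count independent readings. The calls numbered 0 in both classes in limma, with 3 unadjusted p-values under 0.05 within the dim and 1 within the bright arrays. The shares of all probes in the fits within a class are not given here. In the test of any difference among the 3 groups, limma without a block called 0 of 38 members and 0.276% of all probes. With brightness as a block it called 0 of 38 members and 9.03% of all probes. An unadjusted p under 0.05 was found for 0 and 1 members, and for 1960 and 7380 of all probes.

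The brightest probe of each gene was not the only reading, and the other probes were examined after the values of RPL23 had been seen. Over all 214 kept probes of the members, 0 were called in any comparison without a block. Under a brightness block 3 of 214, or 1.40%, were called in RFIneg against RFIpl, all lower, where 6.63% of all probes were. In RFIplR against RFIpl 1 of 214 was called, lower, where 10.3% of all probes were. Leaving out single arrays, the count in RFIplR against RFIpl was 2 without RFIpl 2 and 3 without RFIplR 1, and in RFIneg against RFIpl it was 2 and 3. With array weights in place of the block the counts were 5 in RFIneg against RFIpl, 0 in RFIneg against RFIplR and 4 in RFIplR against RFIpl, all lower. For these fits, without an array or with weights, the shares of all probes called are not given here. No result about the members is read from their counts. The 4 calls with the block fell on RPL23 at 138 and 225, shown above, on RPL11 at 920 and on RPL12 at 530. The probes of RPL11 and RPL12 were assigned through the gene name column alone and were much dimmer than the brightest probes of their genes. On the bright RFIpl arrays their mean levels were 1.25 and -1.15, against 8.13 and 6.71 at the brightest probes. RPL11 at 920 had -0.50 in RFIneg against RFIpl (adjusted p = 0.0348 in limma with the block), while the brightest RPL11 probe had -0.03. In RFIplR against RFIpl the probe at 920 had an adjusted p of 0.0538 with the block and 0.0452 also without RFIpl 2. RPL12 at 530 had -0.39 in RFIplR against RFIpl (adjusted p = 0.0375), while the brightest RPL12 probe had 0.13. All 6 probes of RPS23 lay below 0 in RFIneg against RFIpl, between -0.62 and -0.18, and none was called in either fit; the lowest, at 698, was well above background on 19 of 24 arrays.

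All 4 probes of RPL23 lay below 0 both in RFIneg and in RFIplR against RFIpl. At 225 the bright arrays had a lowest, median and highest level of 6.39, 6.49 and 6.63 in RFIneg, 6.37, 6.49 and 6.87 in RFIplR and 6.47, 6.97 and 7.05 in RFIpl. Of the bright arrays, 5 of 6 in RFIpl were above all in RFIneg, and RFIpl 3, with 6.47, fell among them; the 2 dim arrays of RFIpl read 6.72 and 6.57. The difference at 225 in RFIneg against RFIpl was -0.35, with an adjusted p of 0.0264 in limma with the block and 0.400 without it. At 138 it was -0.39, with adjusted p-values of 0.0430 and 0.432.

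At the brightest probe of RPL23, at 435, the difference in RFIneg against RFIpl was -0.19 (adjusted p = 0.150 in limma with the block), and at 436 it was -0.28 (adjusted p = 0.0702). At 435 the bright arrays read 6.91, 7.24 and 7.31 as lowest, median and highest in RFIneg and 7.17, 7.38 and 7.58 in RFIpl. RFIpl 2 was the highest array at 138, 225 and 436 among the RFIpl pigs, and the lowest at 435. Without it and with the block, the difference was -0.32 at both 225 and 138, with adjusted p-values of 0.0495 and 0.0800. Within the bright arrays alone 0 of 214 member probes were called in any comparison, and with brightness and slide as separate blocks 0, 0 and 1. The shares of all probes called in these fits are not given here either.

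**Figure D3:**
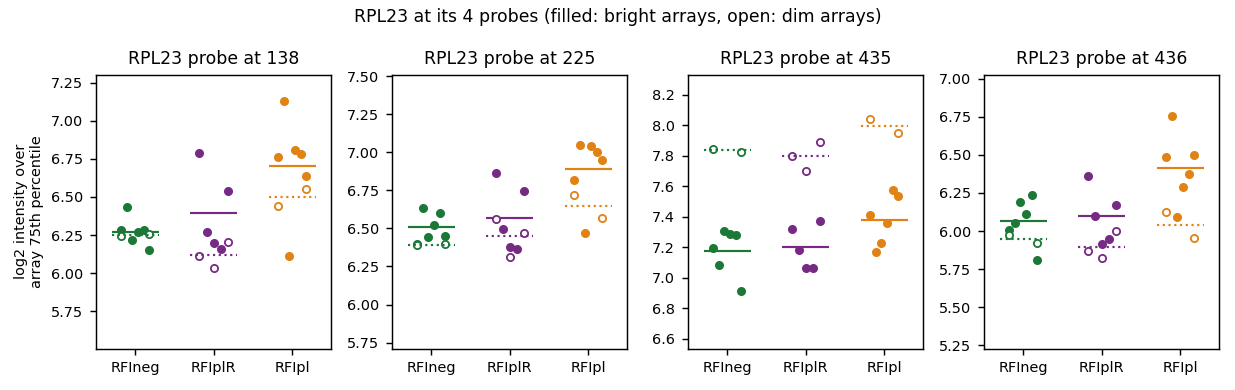
Level of RPL23 (y axis, log2 intensity over the array's 75th percentile) at its 4 probes in RFIneg, RFIplR and RFIpl, with filled points for bright and open points for dim arrays and lines at their means. At 225 the bright arrays have a median of 6.49 in RFIneg and in RFIplR, against 6.97 in RFIpl.

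The members varied little between pigs of the same group and brightness class. The SD within group and brightness class had a median of 0.115 over the 38 members, with a range from 0.061 for RPL7 to 0.244 for RPL14. It was 0.314 over all 28601 kept probes and 0.193 over the 1154 of them with a mean level of 5 or more. Over 14 mitochondrial ribosomal protein genes the median was 0.203, and over 11 initiation factors 0.155. Within groups alone, with bright and dim arrays together, the median was 0.289 over the members and 0.271 over the initiation factors. It was then 0.548 over the mitochondrial genes, 0.696 over all kept probes and 0.495 over those with a mean level of 5 or more. These are descriptions of sets at different levels of signal, and the difference between them was not tested.

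**Figure D4:**
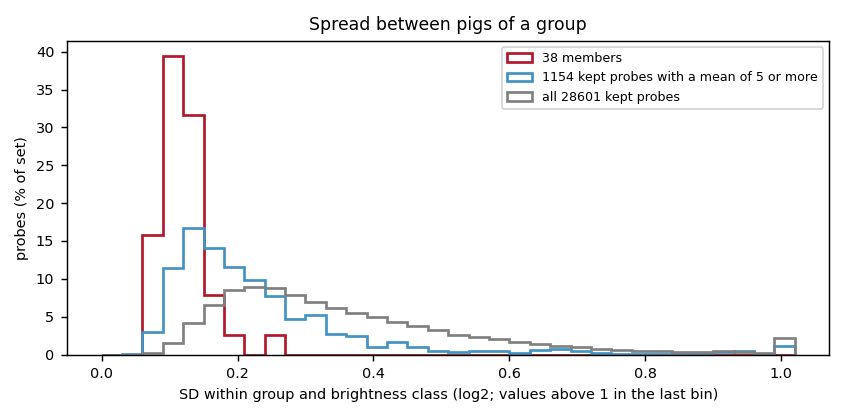
SD within group and brightness class (x axis, log2) as a percentage of each set (y axis) for 38 members (red), 1154 kept probes with a mean level of 5 or more (blue) and all 28601 kept probes (grey). The medians are 0.115, 0.193 and 0.314.

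What variation there was tended to be shared. Over the 17 bright arrays, after removal of the group means, the median of the pairwise Pearson correlations among the 38 members was 0.50, and 92.3% were above 0. Among 4258 other named genes the median was 0.03, and among the 216 of them with a mean level of 5 or more 0.18. RPL13A correlated least with the other members, with a mean r of 0.00, followed by RPS24 with 0.08 and RPL32 with 0.10. All pairs share the same arrays and the same scaling.

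Much of this rested on 2 arrays. RFIplR 1 and RFIpl 2, which were scanned on the same day and slide, had 36 and 34 of 38 members above the mean of the bright arrays, with median shifts of 0.18 each. The other 22 arrays lay between -0.12 and 0.12 around the mean of their brightness class. Among them RFIplR 8 and RFIplR 4 also had 34 members above that mean, and RFIplR 6 had 33. Their median shifts were 0.08, 0.07 and 0.12. The lowest count was 4, in RFIplR 3 and RFIplR 5. Without RFIplR 1 and RFIpl 2 the median correlation was 0.29 among the members and 0.21 among the other named genes with a mean of 5 or more. The third array of the slide that held RFIplR 1 and RFIpl 2, RFIneg 3, had a shift of -0.04.

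The largest differences in the member values lay between dim and bright arrays. At the brightest probe, dim minus bright ran from -1.86 for RPL7 and -1.53 for RPS3A to 1.31 for RPS29, with a median of -0.31. It exceeded 1 in size in 5 of 38 members, or 13.2%, and in 54.1% of all kept probes. The labels name an amplification with T7 polymerase before hybridisation. The dim arrays were all scanned on day 2, as were the bright arrays RFIpl 4, RFIpl 7 and RFIplR 8.

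Among the probes of a gene, dim minus bright tended to rise with the position of the probe, more in some genes than in others. For RPLP0 it was -1.18 at 146, the first probe, -2.42 at 549, -1.92 and -1.88 for the overlapping pair at 769 and 778, -1.30 at 881 and 0.49 at 1013, the brightest probe. For RPL7 it was -2.80 at 317, -1.63 at 670 and -0.53 at 754. RPS4X, the X-linked member of the body of the small subunit, had -1.62 at 222, -2.37 at 522 and 0.76 at 1424, so in both genes the first probe broke the rise. In the 10 genes with 8 or more kept probes, 114 probes in all, the Spearman correlation of dim minus bright with position was above 0 in all 10, with a median of 0.51 and the highest values for RPL8 (0.97, 8 probes), RPL7 (0.95, 15 probes) and RPS4X (0.94, 14 probes). For RPLP0 it was 0.62 over 13 probes.

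RPS15 and RPL10A, with 8 probes each, had 0.05 and 0.14. GC content gave a correlation below 0 in 6 of the 10 genes, with a median of -0.23, and fell with position in RPL7 and RPL8, with rank correlations of -0.71 and -0.94. Probes of a gene share sequence and RNA, and the cause of the gradient was not tested. The groups held unequal numbers of dim arrays, and the median over all kept probes of RPLP0 gave -0.39 in RFIplR against RFIpl, where the brightest probe gave 0.05, and neither was called.

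**Figure D5:**
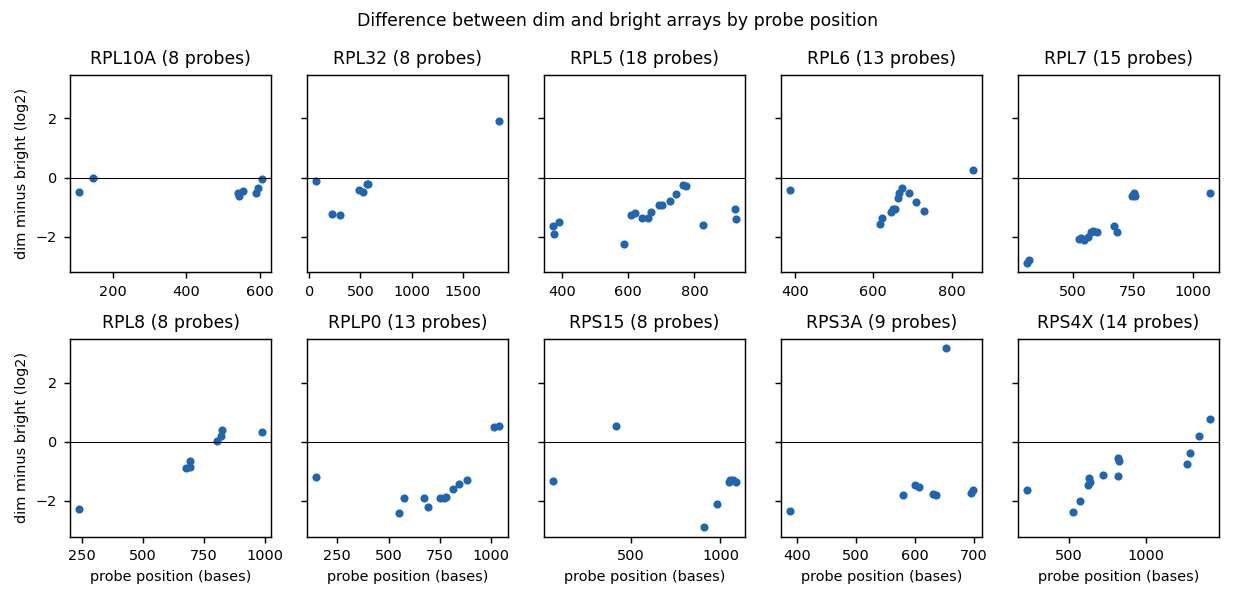
Mean level on dim arrays minus that on bright arrays (y axis, log2) against the position of the probe in bases as the scanner files give it (x axis) for the 10 genes with 8 or more kept probes. Points rise to the right in RPL7, RPL8 and RPS4X, while RPL10A and RPS15 show no such order, and position is read from sequences that may differ between probes of a gene.

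Genes that act with the ribosome were read the same way. In limma without a block, 0 of 65 measured genes of 9 companion lists were called in any comparison. Under a brightness block the ribosome assembly list had 11 measured genes, of which 1 was lower in RFIneg against RFIpl, where 6.63% of all probes were called, and 3 were lower in RFIplR against RFIpl, where 10.3% were. DDX18, a nucleolar helicase, had -0.48 in RFIneg (adjusted p = 0.0399) and -0.53 in RFIplR (adjusted p = 0.0184), both against RFIpl. DKC1, the pseudouridine synthase of the small nucleolar particles, had -0.59 and BYSL, a small-subunit assembly factor, -0.41 in RFIplR against RFIpl (adjusted p = 0.0244 and 0.0236 in limma). The median of the list was -0.25 in RFIneg and -0.23 in RFIplR against RFIpl, where those of all probes were -0.01 and -0.02. Both comparisons use the same RFIpl arrays.

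Of 10 genes of the large mitochondrial ribosomal subunit, with the block, MRPL3 was higher and MRPL2 lower in RFIplR against RFIpl, at 0.38 and -0.45 (adjusted p = 0.0203 and 0.0260 in limma; 10.3% of all probes were called), and of 4 of the small one 0 were called. Of 4 subunits of RNA polymerases I and III, which make ribosomal and transfer RNA, POLR3K was higher, at 0.34, and POLR3D lower, at -0.65 (adjusted p = 0.0164 and 0.0382). None of 11 initiation factors, 7 elongation and termination factors, 4 transfer RNA synthetases, 4 fusion or ribosomal-like genes and 10 regulators was called in limma in any comparison with the block. The regulators included MYC, which drives ribosome production, with -0.68 in RFIneg against RFIpl (adjusted p = 0.0626), and EIF4EBP1, the translational repressor that mTORC1 phosphorylates, with -0.36 in RFIplR against RFIpl (adjusted p = 0.0815). EIF4A1, the helicase of the initiation complex, had -0.38 in RFIneg against RFIpl (adjusted p = 0.0833).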

How the data were processed

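Total RNA of 24 tissue samples, 150 ng each, was labelled with Cy3, per the labels. Spot intensities, per the file headers, came from Feature Extraction 10.7.3.1. The deposited value table matched log2 of the processed intensity after subtraction of a median per array. The submitters' processing notes list R 2.10.0. The processed intensity of each of 43603 probes was divided by the array's 75th percentile, floored at 0.001 of it (0 values fell below) and taken as log2, with the mean over spots of a probe. Kept were 28601 probes well above background on at least 6 of 8 arrays of a group and missing on at most 6 arrays. Differences were tested with limma 3.58.1 (R 4.3.3, lmFit and eBayes) over all 24 arrays, adjusted by Benjamini-Hochberg over all kept probes at 0.05, and the fit was tested on simulated data. Intervals are 95% and not adjusted for multiplicity. Brightness (17 bright, 7 dim arrays, split at the widest gap of the 75th percentile), slide (7) and scan day (3) were tried as blocks.

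Each gene was read at its brightest probe, and RPS4 in the files was taken as RPS4X. Symbols came from RefSeq accessions for 7185 probes, gene identifiers for 1367 and the files for 3554, while 29 had several and 31468 none. Named are every called member, the 5 members with the largest positive and the 5 with the largest negative difference per comparison, a fixed panel (RPLP0, RPLP1, RPSA, RPL5, RPL11, RPL36AL and RPS18 of those measured), and of each companion list the called genes or, where space allowed, those with the smallest p. Values of 2 members and 1 companion gene are not reported here one by one, though they enter the counts. The members and lists were chosen with earlier results of these data known. P-values measure the spread between samples of a group. Whether probes separate a gene from its processed pseudogenes was not tested, and 0 spots were saturated. The number of arrays limits the precision. Same-numbered arrays of different groups were not treated as pairs. The correlation of their deviations ran from -0.82 to 0.88, above 0.1 in 12 of 24 pairs. It was above 0 where both arrays were of the same brightness class and below 0 where they were not. It therefore follows brightness and cannot show whether pigs with the same number were paired.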

Additional observations from a re-analysis of the deposited data

Results flagged for a closer look

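Of 81 sets of 8 values (26 named members and the array medians of all members, in 3 groups), 0 had an array beyond Dixon's 95% critical value of 0.526. The bright and dim arrays of a group form separate clusters in most members. In RPL7 the 2 dim arrays of RFIneg lay at 5.99 and 6.10, and the 6 bright ones at 7.82 to 8.03. In such sets the gap from an end array to its neighbour is small against the range, which masks single arrays. For these sets no conclusion about single arrays is drawn from the count of 0, and arrays within a brightness class were not tested.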

How the results depend on the processing

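The count of called members was 0 of 38 in every comparison under every alternative listed in advance that was run. With the replicate number as a block it was 0 in each comparison, and the medians were -0.01, -0.02 and 0.01 as without it. Of 24 arrays, 0 correlated best with an array of the same number, but these correlations follow brightness and cannot show whether pigs were paired. Among the alternatives added after seeing the data, brightness as a block on quantile-normalized values called 1 member, RPL23, in RFIneg against RFIpl (-0.30, adjusted p = 0.0381 in limma). It also called 1 in the test of any group difference (adjusted p = 0.0446). In RFIplR against RFIpl it gave RPL23 an adjusted p of 0.0546. Among the alternatives, the shares of all probes called are given here only for brightness as a block. The median member difference moved after normexp background correction to 0.30 in RFIneg against RFIplR and to -0.27 in RFIplR against RFIpl, where that of all probes moved to -0.19 and 0.20; the cause was not tested. Without 1 array at a time the medians lay between -0.05 and 0.01 in RFIneg against RFIpl, -0.04 and 0.05 in RFIneg against RFIplR, and -0.04 and 0.04 in RFIplR against RFIpl, and the count was 0 throughout. Quantile normalization alone gave -0.11, -0.05 and -0.07, and within scan day 2 the medians were -0.11, -0.13 and 0.08. All RFIneg arrays of that day were dim, while RFIpl and RFIplR held bright and dim ones in unequal shares. Group and brightness therefore cannot be told apart in these day 2 medians. A floor of 1 before scaling gave the same values.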

Other observations

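A further 13 ribosomal protein genes were named only by probe descriptions or gene identifiers and stand outside the rule. They were RPL3, RPL4, RPL19, RPL21, RPL23A, RPL27A, RPL31, RPL34, RPLP2, RPS6, RPS13, RPS19 and RPS27A. Of these 13, 0 were called in any comparison in limma, without a block or with brightness as a block. With the block their differences ran from -0.28 for RPS19 to 0.17 for RPL27A in RFIneg against RFIpl, with a median of -0.05. With the block RPS6, the small-subunit protein phosphorylated by S6 kinases, had -0.06 (interval -0.19 to 0.06) in RFIneg against RFIpl. In RFIplR against RFIpl it had -0.08 (interval -0.20 to 0.05). Without the block its values were -0.06 (interval -1.04 to 0.91) and -0.33 (interval -1.31 to 0.65). RPL4, a reference gene whose extension lines the exit tunnel, had 0.06 (interval -0.08 to 0.20) and 0.08 (interval -0.06 to 0.22) in the same comparisons with the block. Without it the intervals ran from -0.33 to 0.44 and from -0.40 to 0.38. The smallest adjusted p in limma with the block was 0.0713, for RPL3, which forms part of the peptidyl transferase region. Its difference in RFIplR against RFIpl was -0.24 (interval -0.41 to -0.06) with the block and -0.41 (interval -1.10 to 0.28) without it.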
